A study of Mus musculus with 1824 samples.

Results

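The genes described here are 10 components of the Wnt signalling pathway, 6 ligands (Wnt2, Wnt3, Wnt3a, Wnt5a, Wnt5b and Wnt6) and 4 genes that act downstream or as feedback (Axin2, Lef1, Sp5 and Dkk1), out of 55487 genes in a single-cell RNA-seq table of early mouse embryos. They were taken by gene symbol, and the Ensembl identifier of each has 1 row in the table. The study made Tet triple-knockout (Tet-TKO) chimaeras and also used wild-type cells. Tet-TKO embryonic stem cells carrying an H2B-tdTomato label were injected into wild-type C57BL/6J blastocysts, which were carried by CD1 recipients until embryonic day 7.5 (E7.5) or 8.5 (E8.5). The labels of every cell give only the strain CD1, the tissue (E7.5 embryo or E8.5 embryo), a plate and a well, so knockout and host cells could not be told apart and were not compared. Cells were stained for KDR, a receptor of vascular and mesodermal progenitors, and CD41, an early blood marker, and flow-sorted into plates, but the gate of each plate is not in the labels. How many embryos a plate holds is likewise not given for most plates. Among the E7.5 plates, 4 carry the title of a single Tet-tko-chimera embryo (embryos 1, 2, 4 and 5), 1 is titled a tet chimera plate, and 6 have a plate and a lane number only and are called lane plates here. The titles of the 8 E8.5 plates name no background.

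Wnt ligands are secreted, lipid-modified proteins that bind Frizzled receptors. In the canonical branch this stabilises beta-catenin, which enters the nucleus and works with TCF/LEF factors. Wnt3 is required to form the primitive streak, the site where epiblast cells turn into mesoderm and endoderm, and Wnt3a maintains caudal progenitors and paraxial mesoderm. Wnt5a and Wnt5b are best known for non-canonical signalling and for movement and elongation of tissue. Axin2 encodes a scaffold of the complex that degrades beta-catenin, Lef1 a nuclear partner of beta-catenin, Sp5 a zinc finger transcription factor and Dkk1 a secreted inhibitor that blocks the LRP5 and LRP6 co-receptors. All 4 are commonly used as readouts of canonical signalling.

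The table holds 1824 cells on 11 E7.5 and 8 E8.5 plates. Of these, 1634 cells, 89.5% of the E7.5 and 89.7% of the E8.5 cells, had at least 100000 reads and were within the limits on mitochondrial and ribosomal reads. Their depth was 100941 to 6162793 reads at E7.5, with a median of 742762, and 105644 to 3544173 reads at E8.5, with a median of 575073. Plates are not known to be single animals, and they differ in cell type: the summed CPM (reads scaled to a common library size) of 6 blood markers ranged from 2.37 to 46559 over the E7.5 plates and from 3.08 to 153775 over the E8.5 plates, and the defining markers of streak, blood, endothelium and trophoblast were each abundant on some plates. A plate sum cannot tell apart fewer expressing cells and less RNA per cell, and the stages cannot be told apart from the sort of each plate. Intervals below are exact 95% intervals and cover counting error only, since reads without molecular identifiers are not independent molecules.

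Wnt3 was the ligand with the highest level per length at E7.5 and the lowest at E8.5. The gene (ENSMUSG00000000125, chr11:103774150-103817957 on the plus strand of GRCm38) had a pooled E7.5 level of 39.2 CPM (95% interval 38.8 to 39.6), against 4.22 CPM (4.04 to 4.41) for E8.5. Over the E7.5 plates its level ran from 1.14 to 82.7 CPM with a median of 29.5, and over the E8.5 plates from 0 to 18.6 CPM with a median of 1.41. The high end at E7.5 was held by chimera plate 3 (82.7 CPM), embryo 2 (81.2 CPM) and embryo 1 (70.1 CPM). Pou5f1, the epiblast and pluripotency factor, stood at 363.5 to 514.9 CPM on these 3 plates, but lane plates 5 and 6 were as rich in it (472.2 and 436.8 CPM) with 39.7 and 29.5 CPM of Wnt3. The plates of the 2 stages overlapped, with 4 of 8 E8.5 plates below every E7.5 plate. After each cell was thinned to 100000 reads, a Wnt3 read was found in 37.4% (34.3 to 40.5) of the E7.5 and 4.21% (2.84 to 5.99) of the E8.5 cells, against 40.5% and 5.08% without thinning. On E7.5 lane plate 1, which held the highest blood marker sum of that stage and had a median depth of 1112480 reads, the thinned share was 1.08%.

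Wnt3a was carried by few cells on few plates at both stages. It (ENSMUSG00000009900, chr11:59248033-59290752, minus strand) had pooled levels of 4.02 CPM (3.89 to 4.16) for E7.5 and 3.98 CPM (3.8 to 4.16) for E8.5. Lane plates 4, 5 and 6 had 18.2, 32.6 and 27.5 CPM, whereas the other 8 E7.5 plates had 0 to 1.78 CPM. At E8.5 plates 7 and 8 had 18.1 and 11.4 CPM and together held 96.3% of all Wnt3a reads of that stage. The thinned detection share was 5.93% (4.51 to 7.63) in the former and 3.34% (2.13 to 4.97) in the latter stage, and the 10 cells richest in Wnt3a contained 56% and 87.6% of its reads. At E8.5 other ligands were concentrated too, with 74.4% of Wnt3, 71.2% of Wnt2 and 65.8% of Wnt5b reads in 10 cells each, whereas their E7.5 shares were 13.01%, 24.8% and 19.7%. The similar pooled levels of the 2 stages therefore each rest on a small number of cells.

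Wnt5a (ENSMUSG00000021994, chr14:28504750-28527448, plus strand) had the highest CPM of the ligands at both stages, with 78.4 CPM (77.8 to 79) in E7.5 cells and 43.5 CPM (42.9 to 44.1) in E8.5 cells, but its exons span 7823 bases and its level per kilobase was 10.02 CPM at E7.5, below that of Wnt3 (12.7), Wnt2 (11.9) and Wnt5b (10.4). The E7.5 plates ran from 3.35 to 144.1 CPM with a median of 53.9, led by lane plates 3 and 4 (144.1 and 124.8 CPM). The E8.5 plates ran from 0.162 to 155.1 CPM with a median of 11, led by plates 8 and 4 (155.1 and 98.9 CPM). Wnt5b (ENSMUSG00000030170, chr6:119432531-119544347, minus strand) had 27.7 CPM (27.4 to 28.1) in E7.5 cells and 21.3 CPM (20.9 to 21.7) in E8.5 cells. Its plates had a median of 30.1 CPM at E7.5, in a range of 0.226 to 46.5, while the E8.5 median was 5.05 CPM in a range of 0 to 83.6, so that the 2 highest plates, E8.5 plates 7 and 8, stood above all E7.5 plates while 2 other E8.5 plates stood below them all.

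Wnt2, a ligand known from allantois and vascular mesenchyme, and Wnt6, known from surface and extraembryonic epithelia, were distributed differently. Wnt2 (ENSMUSG00000010797, chr6:17988940-18030585, minus strand) had 26.9 CPM (26.6 to 27.3) at E7.5, with plates from 5.75 to 42.5 CPM and a median of 23.3, and 22.8 CPM (22.4 to 23.3) at E8.5, with plates from 0 to 78.3 CPM and a median of 9.39. Wnt6 (ENSMUSG00000033227, chr1:74771892-74785322, plus strand) had 8.74 CPM (8.54 to 8.94) at E7.5, where embryos 4 and 5 held the highest values (38.6 and 30.3 CPM) and the other 9 plates had 0.487 to 13.4 CPM. At E8.5 it reached 34.9 CPM (34.4 to 35.4), from 128.3 and 110.7 CPM on plates 7 and 8 and 0 to 14.3 CPM on the rest. The 14.3 CPM of E8.5 plate 1 came almost wholly from 1 of 92 cells in the thinned counts. Wnt6 was the only member whose pooled log2 ratio of E8.5 over E7.5 was at least 1, but its other measures were lower at E8.5. It was detected after thinning in 15.1% (12.9 to 17.6) of the E7.5 and 9.87% (7.75 to 12.3) of the E8.5 cells, its plate median was 6.52 CPM in the earlier and 1.27 CPM in the later stage, and the 10 cells richest in it held 63.7% of its E8.5 reads.

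**Figure D1:**
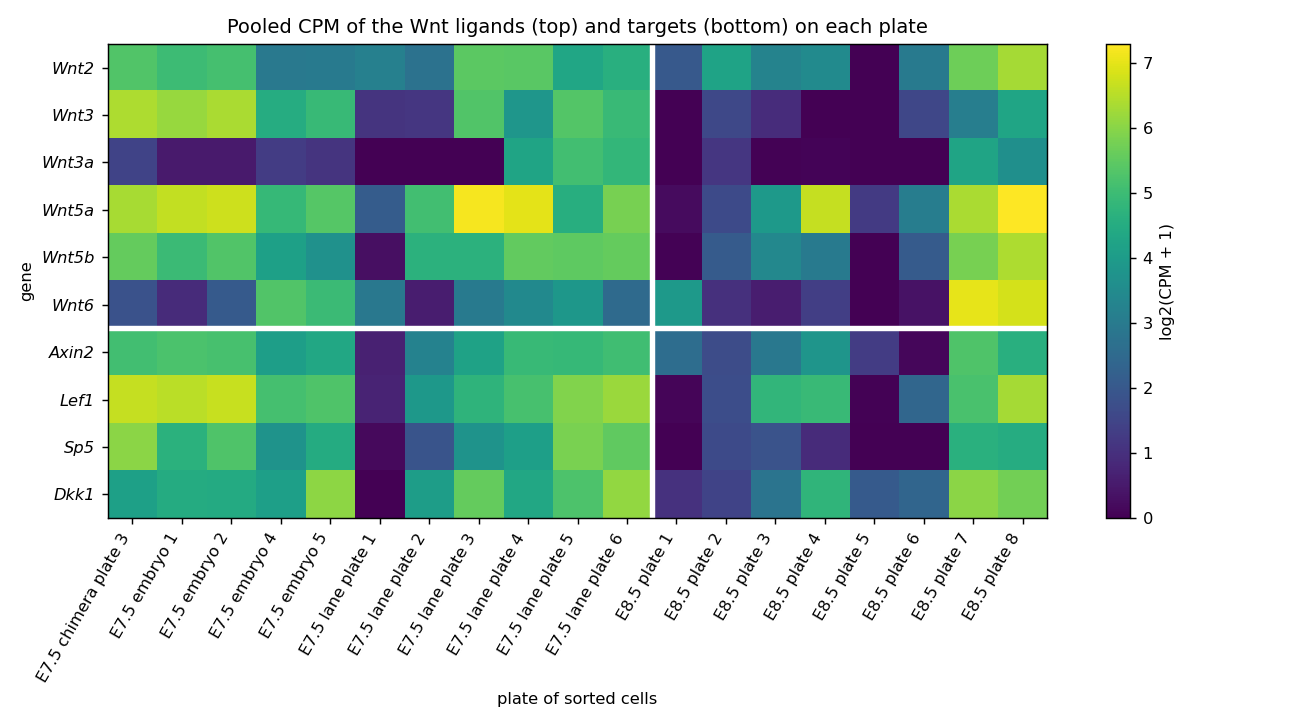
Heat map of the pooled level of each member (rows, ligands above the white line and targets below) on each of the 19 plates (columns, E7.5 left and E8.5 right of the white line), as log2(CPM + 1). Wnt3a is bright on 5 plates only, Wnt6 is highest on E8.5 plates 7 and 8, and E7.5 lane plate 1 and E8.5 plate 5 are dark for most members.

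Of the downstream genes, Lef1 was found in most E7.5 cells. It (ENSMUSG00000027985, chr3:131110471-131224356, plus strand) was detected after thinning in 55.9% (52.6 to 59.1) of the E7.5 and 27.7% (24.4 to 31.2) of the E8.5 cells, with 49.1 CPM (48.6 to 49.6) and 22 CPM (21.6 to 22.5). Axin2 (ENSMUSG00000000142, chr11:108920349-108950783, plus strand) was detected in 47% (43.8 to 50.2) and 15.7% (13.04 to 18.6) of cells with 21.7 CPM (21.4 to 22.03) and 11.2 CPM (10.9 to 11.5). Sp5 (ENSMUSG00000075304, chr2:70474923-70477729, plus strand) was detected in 33.8% (30.7 to 36.9) and 8.42% (6.45 to 10.7) with 23.4 CPM (23.1 to 23.7) and 6.68 CPM (6.46 to 6.91). Dkk1 (ENSMUSG00000024868, chr19:30545863-30549665, minus strand) was detected in 18.8% (16.4 to 21.5) and 10.4% (8.27 to 12.98) with 27.2 CPM (26.9 to 27.6) and 19.3 CPM (18.9 to 19.7). Axin2 was thus detected in more cells than Dkk1 at a lower pooled CPM: in cells with a read, the median level was 30.5 CPM for Axin2 and 50.4 CPM for Dkk1 at E7.5, and the 10 richest cells held 11.9% of the Axin2 reads and 44.5% of the Dkk1 reads.

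Across the E7.5 plates, Lef1 ranged from 0.653 to 101.6 CPM (median 38.2), Axin2 from 0.586 to 36.03 (median 28.6), Sp5 from 0.142 to 64.2 (median 21.6) and Dkk1 from 0 to 67.6 (median 21.04). Lane plate 1 was the lowest of the 11 plates for each of the 4 genes. The highest plate differed: embryo 2 for Lef1, embryo 1 for Axin2, chimera plate 3 for Sp5 and lane plate 6 for Dkk1. Across the E8.5 plates, the ranges were 0.0234 to 77.3 CPM for Lef1 (median 15.6), 0.0966 to 38.02 for Axin2 (median 5.85), 0 to 23.8 for Sp5 (median 1.5) and 1.04 to 63.8 for Dkk1 (median 5.07). Plates 7 and 8 together held between 70.7% (Axin2) and 96.3% (Wnt3a) of the E8.5 reads of each of the 10 members. Both plates also held most of the Cdx4 signal, a caudal homeobox gene (93.9 and 145.97 CPM, against 0 to 10.3 CPM on the others), and surface ectoderm markers (736.7 and 849.7 summed CPM, against 8.13 to 197.3).

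The promoters of 3 downstream genes are shown because TCF/LEF factors recognise a short core, CTTTGA, and the 4 genes are used as readouts of those factors. Each line gives the 250 bases before the RefSeq start of the gene on GRCm38.p6, in the direction of transcription, with the core in capitals on either strand (CTTTGA or TCAAAG). The windows are chr2:70474673-70474922 for Sp5, chr11:108920099-108920348 for Axin2 and chr3:131110047-131110296 for Lef1, all on the plus strand.
Sp5: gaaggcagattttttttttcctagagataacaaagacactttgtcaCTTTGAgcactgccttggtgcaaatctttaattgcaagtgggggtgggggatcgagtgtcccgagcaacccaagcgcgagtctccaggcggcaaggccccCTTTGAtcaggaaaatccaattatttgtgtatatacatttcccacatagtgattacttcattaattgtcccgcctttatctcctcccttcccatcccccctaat
Axin2: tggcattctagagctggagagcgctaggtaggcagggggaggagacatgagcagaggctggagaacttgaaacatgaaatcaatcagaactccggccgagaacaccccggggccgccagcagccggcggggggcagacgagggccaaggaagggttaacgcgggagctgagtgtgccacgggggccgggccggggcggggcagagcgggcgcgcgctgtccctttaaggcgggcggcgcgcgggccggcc
Lef1: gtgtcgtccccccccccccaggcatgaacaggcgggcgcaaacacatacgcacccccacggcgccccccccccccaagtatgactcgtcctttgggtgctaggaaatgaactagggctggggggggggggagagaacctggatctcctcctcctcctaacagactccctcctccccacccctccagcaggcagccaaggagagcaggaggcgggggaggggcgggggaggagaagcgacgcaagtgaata
The Sp5 window held 2 matches and the Axin2 and Lef1 windows shown held 0. Over all 32851 windows of 250 bases in the RefSeq table, 13.8% held the core on either strand. The 9 members with a window in the table (Wnt5a had none) have 14 windows, of which 4 (28.6%) held a match, namely those of Sp5 and Dkk1, 1 of 4 of Lef1 and 1 of 3 of Wnt5b. A match is a string of letters and not evidence of binding.

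Set side by side over stages, 3 members had a log2 ratio of E8.5 over E7.5 of at most -1 (with 1 CPM added to each level): Wnt3 at -2.94, Sp5 at -1.67 and Lef1 at -1.12. Of all 9886 genes that reached 10 CPM in one stage or the other, 8.23% were that low. Wnt6 stood at 1.88, against its lower detection and plate median at E8.5, and 6.99% of those genes were at 1 or above. The median ratio of all genes was 0.08, and 0.13 when haemoglobin reads were left out of the library sizes. The other 6 members had ratios between -0.90 (Axin2) and -0.01 (Wnt3a). The spread between plates of a stage was large, with an SD of 1.51 to 2.19 on the same log2 scale, so that only the Wnt3 ratio exceeded that SD (1.75) among the 4 members past 1 in either direction. No member had all E8.5 plates below all E7.5 plates, a pattern seen in 1.41% of the genes, or all above, seen in 0.384%. The order of levels per kilobase also differed. At E7.5 it ran from Wnt3 (12.7 CPM per kb), Wnt2 (11.9), Dkk1 (11.2), Sp5 (11.1), Wnt5b (10.4), Wnt5a (10.02), Lef1 (5.58), Wnt6 (3.99) and Axin2 (3.94) to Wnt3a (1.46). At E8.5 it ran from Wnt6 (15.9), Wnt2 (10.1), Wnt5b (8.02), Dkk1 (7.96), Wnt5a (5.56), Sp5 (3.18), Lef1 (2.51), Axin2 (2.04) and Wnt3a (1.44) to Wnt3 (1.37). Given the plate ranges above, no 2 neighbours in either order were separated by more than the spread between plates. When E8.5 was reduced to plates 7 and 8, a choice made after seeing the data, 1 member (Wnt3, -1.45) was at -1 or below. Wnt6 and 4 members with negative ratios over all plates were then at 1 or above: Wnt3a (1.62), Wnt5b (1.32), Wnt2 (1.25) and Dkk1 (1.05). The ratios of Wnt5a, Axin2 and Lef1 also turned, to 0.64, 0.44 and 0.26, and Sp5 stood at -0.04. The direction of most members thus depended on which E8.5 plates were pooled.

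Next, cells were split by lineage markers, each cell counting as positive with at least 20 CPM of the marker. T (Brachyury), which marks the streak, nascent mesoderm and node, was positive in 39.05% of E7.5 cells, and 95 cells lay between 10 and 40 CPM, near that limit, so that a class is a range and not a cell type. Median depth was alike in the classes, 726880 reads in positive and 754574 in negative cells. At E7.5, 9 of the 10 members had a higher pooled level in T-positive cells. Wnt3 stood at 77.5 against 16.8 CPM, Wnt5b at 60.2 against 8.66 CPM and Wnt3a at 9.61 against 0.743 CPM. Sp5 had 52.8 against 6.16 CPM, Lef1 97.3 against 20.8 CPM and Axin2 40.6 against 10.6 CPM. Wnt6 was the exception, with 5.81 CPM in T-positive and 10.5 CPM in T-negative cells. Of the 9 plates with at least 5 cells of each class, Wnt3, Wnt5a, Wnt5b, Axin2, Lef1 and Sp5 were higher in T-positive cells on all 9, Wnt2, Wnt3a and Dkk1 on 8 and Wnt6 on 3. Other genes were not counted over pooled cells or plates, here or for the marker classes below. Whether these counts are particular to the members was therefore not tested.

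Dividing the E7.5 cells by T and Pou5f1 together separated the members further. In cells positive for both (31.9% of all), Wnt3 was detected after thinning in 78.1% of cells, against 27.9% of cells with Pou5f1 alone, 23.5% of the 68 cells with T alone and 13.4% of cells with neither. Sp5 followed the same order, with 76.7%, 18%, 29.4% and 9.16%, apart from the 2 middle classes. Lef1 was detected in 89% of double-positive cells and still in 76.7% of cells with Pou5f1 alone, whereas cells with T alone had 44.1% and cells with neither 24.3%. Axin2 shares were 80.1%, 45.3%, 50% and 22.5% in the same order of classes. Wnt3a was close to absent without T, with 16.3% in double-positive cells, 0.581% with Pou5f1 alone, 4.41% with T alone and 0.743% with neither. Wnt6 went the other way and was found most often in cells with T alone (32.4%) and least often with Pou5f1 alone (5.23%). Median depth ranged from 704803 to 772986 reads over the 4 classes. The shares were pooled over plates, over which the classes were unevenly spread. Pou5f1 was positive in 1 of 93 cells of lane plate 1 and 4 of 88 of lane plate 2, but in 88 of 94 of embryo 2. Class and plate were therefore not separated in these shares.

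**Figure D2:**
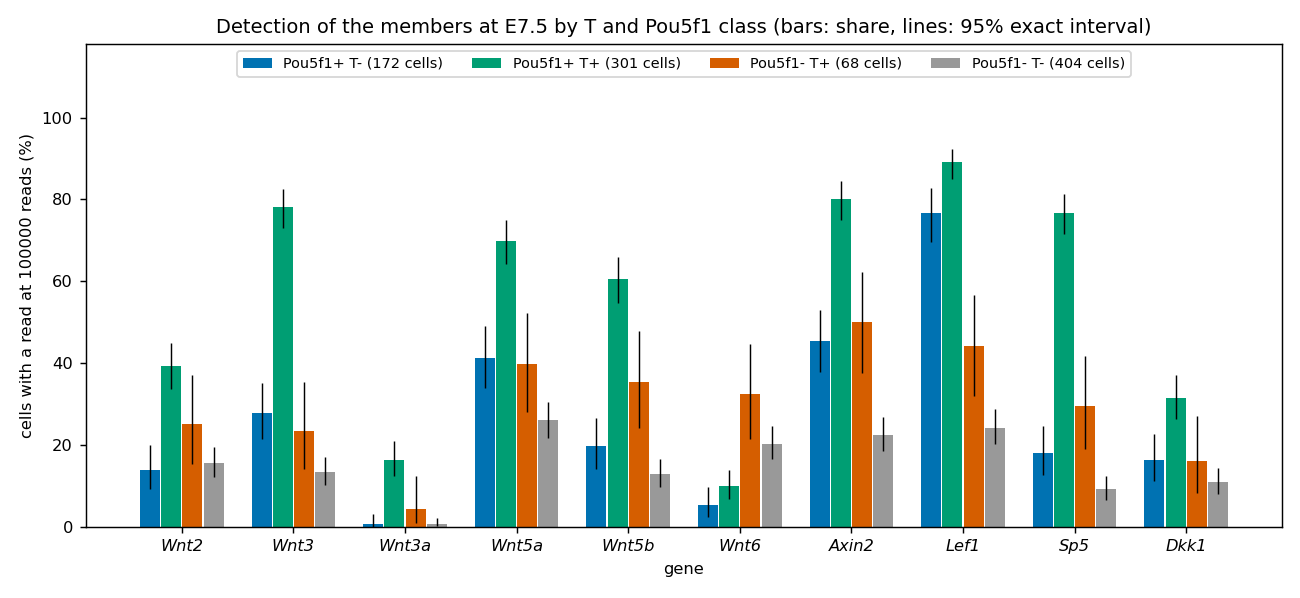
Share of E7.5 cells with at least 1 read of each member after thinning to 100000 reads (vertical axis, percent), by T and Pou5f1 class. Bars are shares over all plates and lines are exact 95% binomial intervals. Cells positive for both markers have the highest share for 9 members, up to 89% for Lef1, and Wnt6 is highest in cells with T alone.

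At E8.5 only 35 cells were T-positive and 11 were Pou5f1-positive, and 15 cells lay between 10 and 40 CPM of T. In the T-positive cells Wnt5b reached 274.7 CPM against 5.13 CPM in T-negative cells, and was detected in 68.6% against 8.26% of cells. Wnt3a stood at 40.7 against 1.63 CPM, detected in 40% against 1.38%. Lef1 was detected in 91.4% against 24.3%, Axin2 in 62.9% against 13.1% and Sp5 in 60% against 5.66%. Wnt3, by contrast, was detected in 2.86% of T-positive and 4.28% of T-negative cells, and Wnt2 in 2.86% and 12.5%. Only 3 E8.5 plates had enough cells of both classes. There Wnt3 was lower in T-positive cells on all 3, although its pooled level was 8.26 against 3.97 CPM, whereas Lef1 and Axin2 were higher on all 3. The pooled values of Wnt5b, Wnt3a and Sp5 come from plates 7 and 8. On plate 3, with 6 T-positive cells, Wnt5b had 0 against 10.6 CPM, Wnt5a 0.36 against 15.8 CPM, Wnt3a 0 against 0.037 CPM and Sp5 0.18 against 2.93 CPM, all lower in T-positive cells. Median depth was 782669 reads in T-positive and 569290 in T-negative cells, and the shares above were thinned.

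The named embryos allowed a test with the embryo as block, in which counts were summed over T-positive and T-negative cells of each of the 4 embryos and fitted with edgeR's quasi-likelihood test. A gene was called at an adjusted p (Benjamini-Hochberg) below 0.01 and a log2 fold change of at least 1 in size. By this rule edgeR called 0 of 19990 genes (0%), and so 0 of the 10 members. An unadjusted p under 0.05 was found for 1990 genes, and DESeq2 called 2.57% of the genes it tested, including 7 members with reads in both classes (Wnt2, Wnt3, Wnt5a, Wnt5b, Axin2, Lef1 and Sp5), all higher. It also called Wnt3a, which had 0 reads in T-negative cells and so entered the fit only through the class where it was high. The same 7 members had a higher level in T-positive cells of all 4 embryos, a pattern seen in 9.79% of the genes tested. In edgeR itself the call depended on the counts entered: with each cell thinned to 100000 reads it called 5 members (Wnt2, Wnt3, Wnt5a, Wnt5b and Lef1) beside 0.235% of all genes tested, and with only genes of 0 counts removed 3 (Wnt2, Wnt3 and Lef1) beside 0.0434%, all higher in T-positive cells.

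Lef1 had 122.2, 141.6, 76.2 and 69.3 CPM in the T-positive cells of embryos 1, 2, 4 and 5, and 30.2, 40.7, 15.9 and 18.7 CPM in their T-negative cells. The classes did not overlap. The edgeR log2 fold change was 1.98 (SE 0.125, adjusted p = 0.0182). Wnt3 had 93.9, 113.3, 41.01 and 50.7 CPM in T-positive and 24.3, 32.4, 13.4 and 15.1 CPM in T-negative cells. Again every positive value exceeded every negative one, with an edgeR log2 fold change of 1.77 (SE 0.126, adjusted p = 0.0205). Wnt2 had 45.04, 53.4, 16.6 and 14.3 CPM against 4.19, 5.75, 2.39 and 2.48 CPM, with 2.98 on the log2 scale (SE 0.24, edgeR adjusted p = 0.0278). All 3 adjusted p-values missed the threshold of 0.01.

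Wnt5b had 41.96, 56.6, 46.9 and 24.2 CPM in T-positive and 7.26, 11.2, 3.75 and 4.24 CPM in T-negative cells (log2 fold change 2.73, SE 0.272, edgeR adjusted p = 0.0563). Wnt5a stood at 130.7, 151.8, 50.5 and 66.6 against 34.4, 33.6, 18.7 and 23.9 CPM (1.74, SE 0.165, edgeR adjusted p = 0.0541). Sp5 had 34.7, 61.3, 34.9 and 33.98 CPM against 3.86, 2.13, 2.53 and 13.8 CPM, and its log2 fold change of 3.27 had an SE of 0.609 (edgeR adjusted p = 0.171). For Axin2 the values were 51.4, 49.2, 26.9 and 32.6 against 6.42, 12.9, 11.3 and 11.5 CPM (1.89, SE 0.331, edgeR adjusted p = 0.15). Wnt3a had 210 reads in the T-positive and 0 in the T-negative cells, a level at least 66.6-fold higher over the group when 3 reads are taken as the floor, but it passed the filter on low counts only through the positive cells. Dkk1 and Wnt6 did not go one way. Dkk1 was higher in T-positive cells of embryos 2, 4 and 5 and lower in embryo 1 (18.3 against 27.5 CPM). Wnt6 had 1.28 and 4.72 CPM in T-positive cells of embryos 1 and 2 against 0.0839 and 0.897 CPM, but 19.9 and 8.01 CPM in embryos 4 and 5 against 46.6 and 44.2 CPM.

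**Figure D3:**
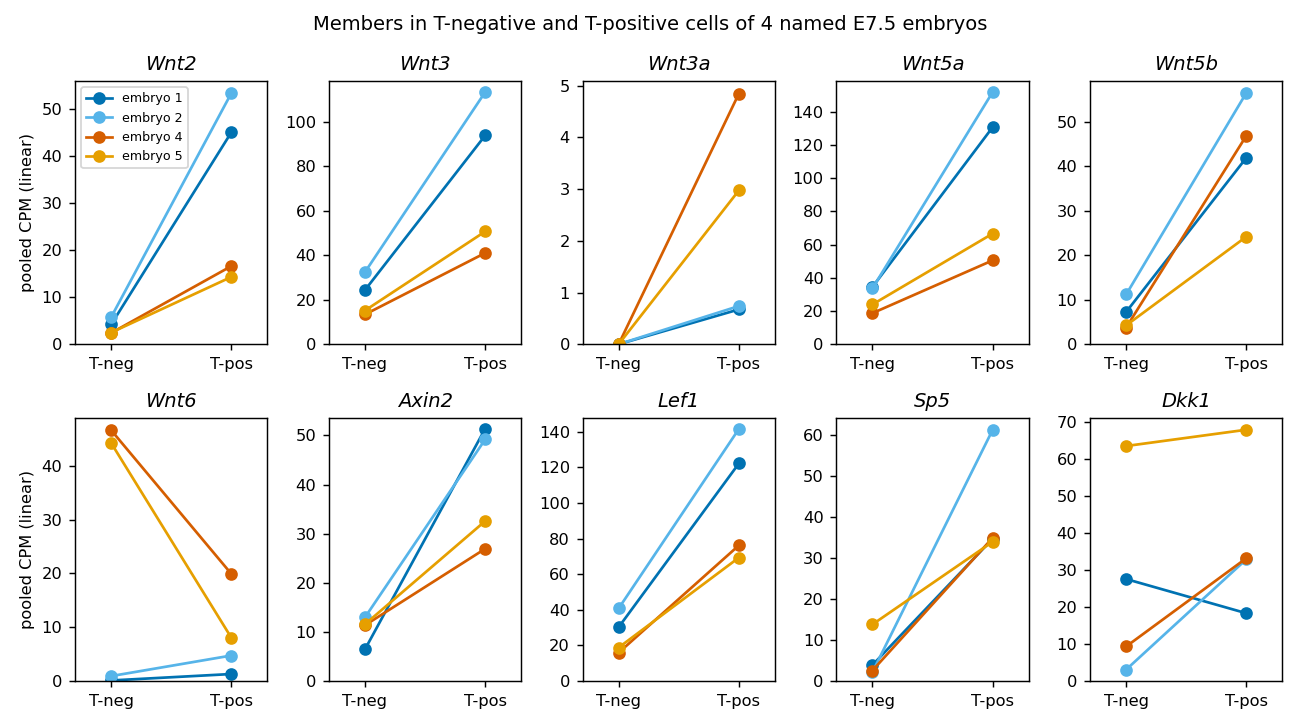
Pooled CPM (linear vertical axis, from 0) of each member in T-negative and T-positive cells, with 1 line for each of the 4 named E7.5 embryos. For 8 members all 4 lines rise to the right, whereas Wnt6 falls in embryos 4 and 5 and Dkk1 falls in embryo 1.

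Markers of other cell types moved with these classes. Summed over 5 nascent mesoderm markers, T-positive cells had 861.4 to 1572 CPM and T-negative cells 237.7 to 346.6 CPM, and all 5 markers were higher in T-positive cells of every embryo. Epiblast markers had 342.3 to 612.3 CPM in T-positive and 351.1 to 2048 CPM in T-negative cells. Trophoblast markers had 38.6 to 952.9 and 16.2 to 1521 CPM, with none of 7 higher in all embryos. Endoderm markers had 37.1 to 430 against 23.5 to 4018 CPM, with 1 of 6 lower in every embryo. Besides those of nascent mesoderm, the endothelium and caudal sums did not overlap. Endothelium was at 218.7 to 308.9 against 62.3 to 188.1 CPM, with 1 of 5 markers higher in every embryo. Caudal markers were at 75.4 to 106.4 against 5.66 to 72.7 CPM, with 3 of 5 higher in every embryo. For trophoblast the highest sums of whole plates were those of embryos 4 and 5 (1350 and 1068 CPM). Their part in the member differences was not tested. Among Pou5f1-positive cells alone, a comparison chosen after seeing the data, the members that were higher in all embryos had log2 fold changes of 1.74 for Wnt3, 1.24 for Lef1, 3.20 for Wnt2, 1.60 for Wnt5a, 2.76 for Wnt5b, 1.75 for Axin2 and 3.09 for Sp5 (edgeR adjusted p from 0.162 to 0.566). The fitted value of Wnt3a, with 0 reads in the T-negative cells, depends on the prior count and is not given.

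The other 4 markers were tested in the same embryos, so all 5 comparisons share cells and are given side by side only. Pou5f1-positive cells, compared in 4 embryos, held 0 called genes of 18358 (0%) in edgeR, with 2068 genes at an unadjusted p under 0.05 and 3.62% of its genes called by DESeq2. Axin2 had a log2 fold change of 1.76 (SE 0.262, edgeR adjusted p = 0.24), Lef1 of 2.66 (SE 1.2) and Sp5 of 2.12 (SE 0.803). These 3 members were higher in positive cells of all 4 embryos, against 15.1% of the genes tested. Wnt3a had 0 reads in negative cells, was at least 34.02-fold higher by the same floor, and entered the fit only through the positive class. Wnt3 was higher in 3 of 4 embryos (1.39, SE 0.613) and Wnt2 and Wnt5a in 2 of 4. DESeq2 called Axin2, and Wnt3a with the same limit. The Pou5f1-negative class held 6 and 11 cells in embryos 2 and 1, so its sums rest on few cells there. Marker sums of several cell types moved with this class without overlap. Epiblast markers had 671.2 to 1231 CPM in positive and 37.5 to 338.4 CPM in negative cells, with 4 of 5 higher in every embryo. Nascent mesoderm markers had 984.3 to 1232 against 214.6 to 948.7 CPM, with 2 of 5 higher in every embryo. Trophoblast markers had 28.5 to 51.5 against 56.4 to 1821 CPM, and those of extraembryonic mesoderm 54.8 to 150.2 against 224.5 to 552.7 CPM, with 2 of 7 and 2 of 5 lower in every embryo. Surface ectoderm sums were also lower, and neural sums higher, without overlap. Their part was not tested.

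Cdx4-positive cells could be compared in embryos 1, 2 and 5, with 5 or 6 positive cells in each. In edgeR 0 of 17450 genes were called (0%), 1379 had an unadjusted p under 0.05, and DESeq2 called 2.20% of its genes. Wnt5a (log2 fold change 1.52, SE 0.278), Wnt5b (2.04, SE 0.472), Axin2 (1.17, SE 0.295) and Lef1 (1.24, SE 0.356) were higher in Cdx4-positive cells of all 3 embryos, as were 9.08% of the genes tested, while Sp5 was higher in 0 of 3 (-1.13, SE 0.49). DESeq2 called Wnt5a, Wnt5b and Axin2. Other markers moved with Cdx4 as well. Caudal markers had 158.5 to 288.8 summed CPM in positive and 32.9 to 69.6 CPM in negative cells, with 4 of 5 higher in every embryo, and extraembryonic mesoderm markers 223.8 to 456.7 against 62.6 to 186.4 CPM, with 2 of 5. Epiblast markers were at 26.6 to 313.4 against 458.7 to 1253 CPM and endoderm markers at 0 to 3.72 against 53.9 to 778.3 CPM, with 4 of 5 and 4 of 6 lower in every embryo and Foxa2, Ttr and Cubn at 0 in positive cells. Their part was not tested. Over all E7.5 plates, Wnt5a was detected in 98.2% of 56 Cdx4-positive cells and 40.3% of the others, and was higher on 7 of 7 plates. At E8.5 Wnt5a was detected in 86.4% of 44 positive cells and 21.6% of the others. Sp5 did not go one way over all plates. At E7.5 it had 19.4 CPM in Cdx4-positive and 23.6 CPM in negative cells but was detected in 46.4% against 33% of them. At E8.5 it had 39.2 against 4.70 CPM, was detected in 45.5% against 5.89%, and was higher on 2 of 3 plates.

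Hand1, a factor of extraembryonic and lateral mesoderm and of trophoblast, gave 2 called genes of 19550 (0.0102%) in edgeR, Ttr and Srgn, both lower in positive cells. Neither is a member, and both are named here because they are the whole list. An unadjusted p under 0.05 was found for 2314 genes, and DESeq2 called 4.24% of its genes, with Wnt6 and Sp5 among them. Wnt6 had 0.867, 8.77, 51.4 and 45.5 CPM in Hand1-positive cells of embryos 1, 2, 4 and 5 and 0.876, 0.527, 17.3 and 7.54 CPM in Hand1-negative cells, a log2 fold change of 2.09 (SE 0.685, edgeR adjusted p = 0.343). Sp5 was lower in Hand1-positive cells of all 4 embryos, with 17.3, 30.5, 2.76 and 6.19 CPM against 28.4, 41.4, 28.05 and 44.6 CPM (-1.82, SE 0.602, edgeR adjusted p = 0.347). Wnt3a, Wnt5a and Wnt5b were higher in all 4, as were 9.24% of the genes tested, with log2 values of 1.85, 0.95 and 1.12. Over all E7.5 plates Wnt3a went the other way, with 1.80 CPM in Hand1-positive and 5.02 CPM in negative cells, and it was higher in positive cells on 4 of 10 plates. Trophoblast markers moved with this class too, at 53.2 to 1795 summed CPM in positive and 19.1 to 610.6 in negative cells. These sums overlapped, and 4 of 7 markers were higher in every embryo. Extraembryonic mesoderm sums did not overlap, at 244.9 to 324.4 against 5.11 to 67.4 CPM. Epiblast sums were lower without overlap, at 123.8 to 278.8 against 655.6 to 1663 CPM, with 4 of 5 markers lower in every embryo. Endoderm sums were too, at 2.06 to 8.47 against 77.2 to 7527 CPM, with 4 of 6. Caudal sums were also higher, and neural sums lower, without overlap. The part of these markers was not tested.

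Krt7, a keratin of trophoblast and surface epithelium, was compared in embryos 2, 4 and 5. There edgeR called 0 of 17775 genes (0%), 5.86% had an unadjusted p under 0.05 and DESeq2 called 1.78% of its genes, among them Wnt2, Wnt5a, Wnt5b, Axin2 and Lef1, each lower. Wnt2, Wnt3, Wnt3a, Wnt5a, Wnt5b, Axin2 and Lef1 were lower in Krt7-positive cells of all 3 embryos, a pattern of 22.3% of the genes tested. Wnt2 and Wnt3a had 0 reads in the positive cells and entered the fit only through the negative class, with 3814 reads for Wnt2. Wnt5a had a log2 fold change of -3.94 (SE 0.457, edgeR adjusted p = 0.731). Endothelial markers were at 1.65 to 15.0 summed CPM in positive and 184.5 to 226.8 CPM in negative cells. Nascent mesoderm markers had 117.3 to 495.9 against 497.3 to 1154 CPM and caudal markers 11.1 to 49.7 against 54.5 to 84.2 CPM. Trophoblast sums overlapped, at 7.24 to 1723 against 31.96 to 1207 CPM, with 0 of 7 markers higher in every embryo. Endoderm sums overlapped too, at 0.505 to 7232 against 69.96 to 1142 CPM. Whether these markers bear on the members was not tested. Wnt6 had a log2 fold change of -0.66 (SE 1.09, edgeR adjusted p = 0.937) and was higher in 2 of the 3 embryos. Over all plates its pooled level went the other way, and stood at 45.4 CPM in 77 Krt7-positive and 6.28 CPM in negative cells at E7.5, higher on 5 of 6 plates, and at 294.8 against 9.04 CPM, with 50 positive cells, at E8.5, higher on 3 of 3 plates. Wnt3 (10.7 against 3.58 CPM), Wnt5b (50.2 against 18.4 CPM) and Axin2 (28.4 against 9.50 CPM) were also higher in Krt7-positive E8.5 cells, each on 2 of 3 plates. Pooled Dkk1 and Sp5 levels were higher there as well, but on 1 and 0 of 3 plates. The shares with a Wnt6 read were 35.1% against 13.4% at E7.5 and 52% against 6.57% at E8.5.

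Read from the side of the members, the cells that contained each ligand differed in the markers they carried. At E7.5, 39.05% of all cells were T-positive, but 92.9% of the 56 cells with a Wnt3a read, 71.1% of those with Wnt3, 70.5% of those with Wnt5b and 36.4% of those with Wnt6 were. Hand1 was positive in 32.4% of all cells and in 80.4% of those with Wnt6, 52.3% of those with Wnt2 and 21.4% of those with Wnt3a. After thinning, 0% of E7.5 cells with a Wnt2 or Wnt3a read were Krt7-positive, against 8.15% of all cells, whereas without thinning 1.299% of Krt7-positive cells had a Wnt3a read. At E8.5, 60.9% of the 23 cells with Wnt3a were T-positive and 43.5% were Cdx4-positive, and 38.2% of the 68 cells with Wnt6 were Krt7-positive.

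Finally, pairs of members were counted in single cells. For each pair an odds ratio of detection in the same cell was pooled over plates (Mantel-Haenszel), so that differences between plates do not enter. Of 45 pairs at E7.5, all with at least 5 cells expected, 38 had an odds ratio above 1 and 33 of at least 2. Other pairs of genes were not counted at either stage, and cells of different types share a plate. Whether such shares are particular to the members was therefore not tested. All 6 pairs of targets were above 1, from 1.93 for Lef1 with Dkk1 to 4.67 for Lef1 with Sp5. Of 24 pairs of a ligand with a target 21 were above 1, the highest being Wnt3a with Sp5 at 8.9, Wnt5a with Lef1 at 8.58 and Wnt3a with Lef1 at 7.99. Wnt5a and Lef1 were found together more often than expected on 10 of 10 plates. The highest pair of ligands was Wnt2 with Wnt5a at 11.1 (above expectation on 10 of 10 plates), followed by Wnt3a with Wnt5b at 10.1 (46 cells, 22.3 expected).

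Wnt6 stood apart at E7.5. Its odds ratio was below 1 with Lef1 (0.392, 49 cells where 68.8 were expected), Sp5 (0.468), Dkk1 (0.63), Wnt3 (0.654), Wnt5a (0.706) and Wnt2 (0.785), and above 1 with Axin2 (1.46), Wnt5b (1.32) and Wnt3a (1.1). It thereby supplied 6 of the 7 pairs below 1, the remaining pair being Wnt2 with Wnt3a (0.648). At E8.5, 43 pairs had at least 5 cells expected and 36 were above 1. There Wnt6 with Lef1 stood at 2.22 and Wnt6 with Wnt3 at 6.9. Wnt3a with Lef1 was highest at 21.1 (22 of 23 Wnt3a cells, 12.5 expected). Wnt2 with Sp5 (0.436), Wnt3 with Sp5 (0.498), Wnt2 with Axin2 (0.595) and Wnt2 with Lef1 (0.843), 4 of 7 such pairs, were below 1. These values describe cells that share plates and carry no p-value.

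**Figure D4:**
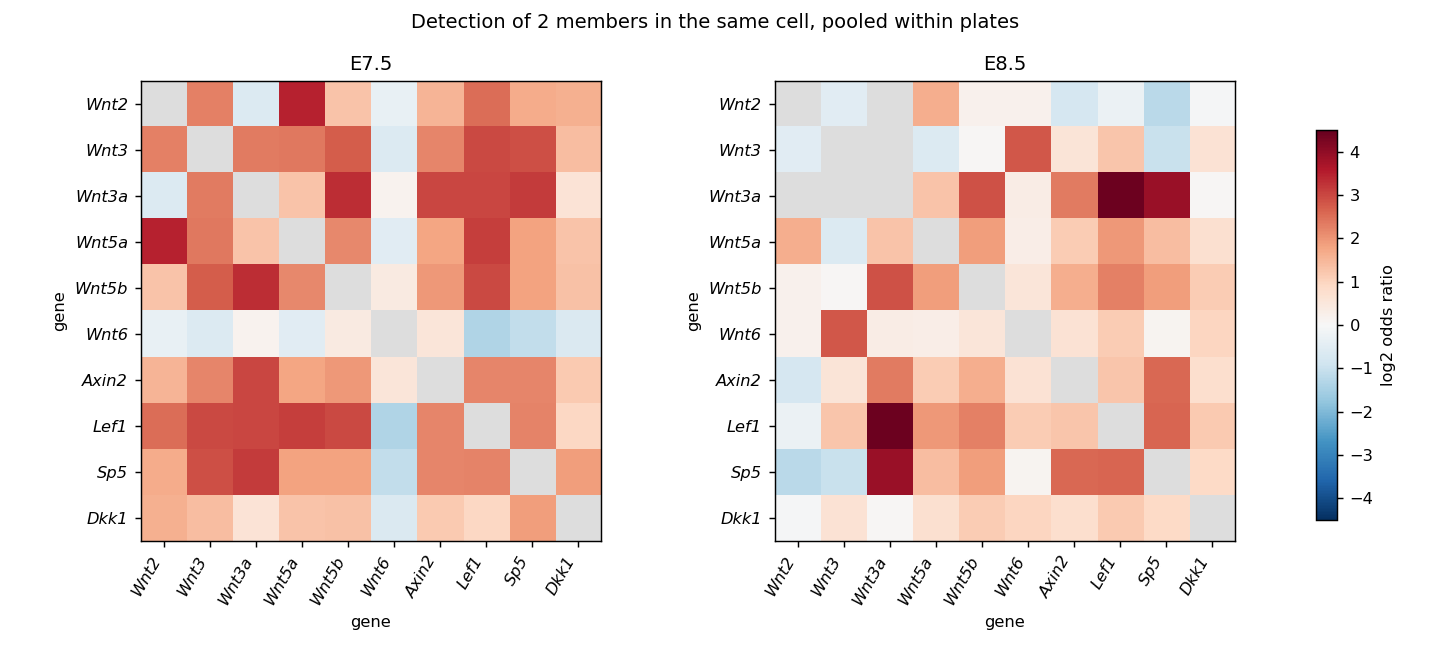
Log2 odds ratio of detecting 2 members in the same cell after thinning, pooled within plates, at E7.5 (left) and E8.5 (right). Red is above 0, blue below 0 and grey marks the diagonal and pairs with fewer than 5 cells expected. The Wnt6 row is pale or blue at E7.5, and the Wnt2 row is pale or blue for the targets at E8.5.

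The number of ligands in a cell went with the number of targets. At E7.5, 32.5% of cells had none of the 6 ligands and on average 0.648 of the 4 targets, whereas cells with 2 ligands had 1.93, cells with 3 had 2.63 and cells with 4 had 2.94 targets. A target was detected in 41.4% of cells with 0 ligands and 99.2% of those with 4. Other sets of genes were not counted in this way. At E8.5, 60.5% of cells had no ligand and on average 0.228 targets, and cells with 3 ligands had 2.02. Within plates the direction was the same: cells with at least 2 ligands had more targets on average than cells with 0 on 10 of 10 E7.5 plates (2.07 to 2.85 against 0.238 to 1.78) and on 4 of 4 E8.5 plates (1.0 to 1.85 against 0.478 to 1.06). Median depth before thinning was 811239, 596270, 754015, 755458, 804496 and 1062580 reads for 0 to 5 ligands at E7.5, so that the 17 cells with 5 ligands were the deepest, and 594941, 536282, 479816, 696836 and 458597 reads for 0 to 4 ligands at E8.5.

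**Figure D5:**
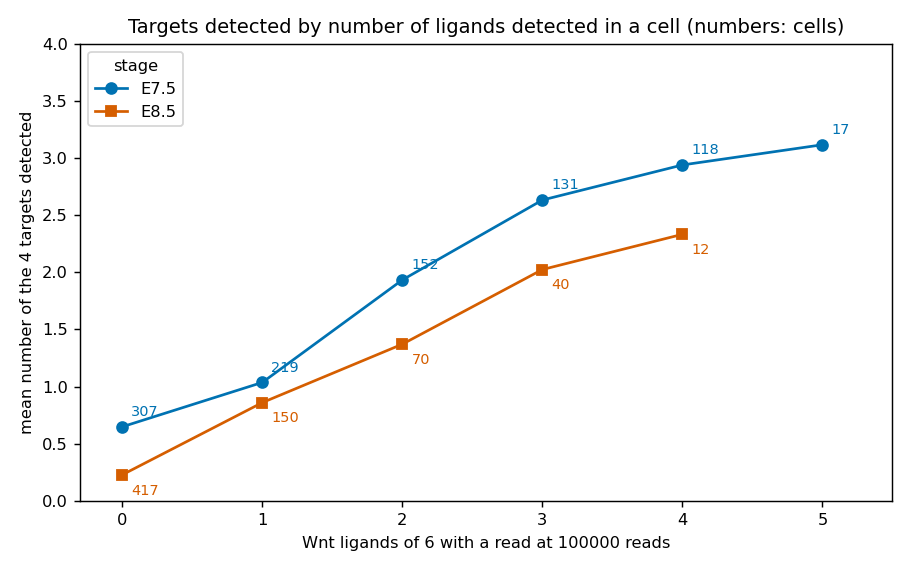
Mean number of the 4 targets (Axin2, Lef1, Sp5, Dkk1) detected in a cell (vertical axis) against the number of the 6 ligands detected (horizontal axis) at 100000 reads, for classes of at least 5 cells. Numbers are cells. Both lines climb, the E7.5 line between 0.648 and 3.12 targets and the E8.5 line between 0.228 and 2.33.

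The rest of the pathway, 79 genes in 8 lists, gave no call in the T comparison either (edgeR, 0 of 69 genes tested in each direction), and the lists are described by counts. Of 12 other target genes, 11 had a log2 fold change above 0 in T-positive cells with a median of 2.06, beside a median of -0.00150 over all genes, and 7 were higher in all 4 embryos. The ones with the highest level, Ccnd1 (206.1 CPM at E7.5), Myc (73.6 CPM) and Cdx2 (48.8 CPM), had 0.69 (SE 0.452), 0.33 (SE 0.277) and 1.94 (SE 0.908), and the larger fold changes belonged to Msgn1 (7.18, SE 1.03) and Cdx4 (5.92, SE 1.38), named here after their values were seen. This list shares Fgf8 with the nascent mesoderm markers and Cdx1 and Cdx2 with the caudal markers summed above. Cdx4 also defined a class of its own. The list is therefore not independent of the cell types that T separates. Of 7 tested other ligands 4 were above 0 (median 0.51). The ones with the highest level, Wnt7b (16 CPM), Wnt2b (6.77 CPM) and Wnt8a (5.91 CPM), had -0.62 (SE 0.908), 2.37 (SE 0.413) and 4.34 (SE 1.04). The R-spondin axis, a list of secreted R-spondins, their Lgr receptors, Rnf43 and Znrf3, had 5 of 7 above 0 (median 1.16). Rspo3 stood at 2.53 (SE 0.321), Znrf3 at 0.61 (SE 0.165) and Lgr4 at -0.36 (SE 0.182).

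Of 10 genes of the destruction complex and its effector, 4 were above 0 (median -0.01), with Csnk1a1 at 0.05 (SE 0.0622), Gsk3b at 0.10 (SE 0.0683) and Ctnnb1, encoding beta-catenin, at -0.03 (SE 0.114). TCF factors and partners had 3 of 6 above 0 (median 0.08), with Tcf7l2 at 0.32 (SE 0.13), Bcl9 at 0.18 (SE 0.185) and Pygo2 at -0.03 (SE 0.098). Receptors had 9 of 15 above 0 (median 0.14), with Fzd3 at 0.35 (SE 0.217), Fzd7 at 0.25 (SE 0.212) and Lrp6 at 0.08 (SE 0.155). Other receptors were farther from 0, such as Fzd10 at 3.92 (SE 0.48, edgeR adjusted p = 0.09003) and Fzd1 at 2.15 (SE 0.545), named after their values were seen. Secretion was represented by Wls at 0.33 (SE 0.151) and Porcn at -0.45 (SE 0.677). Secreted inhibitors had 4 of 10 above 0 (median -0.43), with Cer1 at 0.15 (SE 0.31), Sfrp1 at -0.77 (SE 0.234) and Frzb at 2.42 (SE 0.235, edgeR adjusted p = 0.0547). Between stages, Cer1, an inhibitor of Nodal, BMP and Wnt signals, went from 90 CPM at E7.5 (plates from 0 to 257.7 CPM) to 0.00602 CPM at E8.5. All 4 R-spondin axis genes with at least 10 CPM were at least 1 lower on the log2 scale, against 8.23% of all such genes. This also held for 3 of 6 TCF factors and partners, 2 of 4 inhibitors and 2 of 10 other targets. It held for 1 of 11 receptors, 1 of 9 destruction complex genes, 1 of 1 other ligand and 0 of 2 secretion genes. Of the receptors and of the other targets, 1 each was at least 1 higher. Stage cannot be told apart from the sort of each plate.

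Over the 1634 cells and 9886 genes, the genes most like each member by Pearson correlation of log2(CPM + 1) were of a few kinds. For Wnt3 they were Mixl1 (r = 0.712), Mesp1 (0.67) and Tdgf1 (0.665), genes of the streak and nascent mesoderm. For Sp5 they were T (0.67), Mixl1 (0.668) and Fgf8 (0.621), for Axin2 T (0.577), Evx1os (0.573) and Evx1 (0.556), and for Wnt5b Evx1os (0.601), Evx1 (0.598) and T (0.557). Wnt3a was closest to the caudal genes Cdx1 (0.45), Hoxb1 (0.404) and Sp8 (0.398). Wnt5a and Wnt2 shared Cdh11 (0.667 and 0.467) and Pdgfra (0.646 and 0.466), both of mesenchyme, with Lef1 (0.629) next for Wnt5a and Prdm6 (0.445) for Wnt2. Lef1 was closest to Sox11 (0.688), Sulf1 (0.645) and Wnt5a (0.629). Wnt6 was close to Wnt7b (0.604) and Elf5 (0.554), of which Elf5 is a factor of extraembryonic ectoderm. Dkk1 had no close partner, with Gpc3 (0.329), Sp5 (0.326) and Frzb (0.32). The cells share plates, so these values are descriptions.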

How the data were processed

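Single-cell RNA was amplified by a Smart-seq2 protocol in 96-well plates, many of them after GpC methylase treatment. According to the submitters' processing notes and the study's methods, the authors aligned reads to GRCm38 with HISAT2 2.1.0 and counted them per Ensembl gene with featureCounts, and the deposited table holds those raw read counts. Whether counting used strand is not given in the sources used here. Of 1824 cells, 1730 have at least 4000 reads, at most 10% mitochondrial (37 genes) and at most 20% ribosomal reads (403 genes), and the 1634 with at least 100000 reads, the number the study gives as passing, were used. No doublet caller was run. No 2 columns were identical. The members, lists and tests were chosen with earlier results of these data known. CPM is the deposited count of a gene over all reads of a cell or sum, scaled to a common library size. Detection was counted after thinning each cell to 100000 reads (seed 1). Named-embryo classes (at least 5 cells each, at least 3 embryos) were summed and fitted in edgeR 4.0.16 (R 4.3.3) with filterByExpr, TMM and embryo as block, since both classes come from the same embryo. Genes named beyond the 10 members are, per pathway list, those with the highest pooled CPM at E7.5 (no gene was called in the T comparison), up to 3, and the 3 most correlated with each member, of which 1 is not reported here. All 10 members passed the edgeR filter in every comparison. On simulated counts for the T comparison (16838 genes in the step), edgeR called 49 of 50 genes changed by a log2 of 2, 48 of 50 by -2, 38 of 50 by 1.5 and 35 of 50 by -1.5, and 1 of 16638 unchanged ones. The spread of those counts was set to fixed values and not taken from the data, and no rarely read gene was changed. They therefore check the procedure and do not give its power on the real cells, where Wnt2 at 2.98 was not called. Exon lengths are from GENCODE M21 on GRCm38. Alternatives were other scalings, thresholds, filters, DESeq2 1.42.0 and leaving out each plate or embryo.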

Additional observations from a re-analysis of the deposited data

Results flagged for a closer look

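Of 40 groups of 4 embryos or 8 plates examined for 1 value far from the rest, 5 had such a value, and chance alone gives about 1 in 20. In the T comparison, Wnt5b had a log2 fold change of 3.33 in embryo 4 and of 2.24 to 2.38 in the other 3 embryos. In the Pou5f1 comparison, Axin2 stood at 1.26 in embryo 4 against 1.78 to 1.88 elsewhere, and in the Hand1 comparison at -0.47 in embryo 5 against 0.47 to 0.54. Among the E8.5 plates, Wnt3 reached 18.6 CPM on plate 8 while the other 7 plates had 0 to 7.62 CPM. Lef1 reached 77.3 CPM on the same plate while the others had 0.0234 to 35.6 CPM.

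Between the stages, 40 pairs of a marker and a member were compared, and 1 pair went opposite ways on every plate. Wnt3 was higher in T-positive cells on all 9 E7.5 plates and lower on all 3 E8.5 plates. Pooled over E8.5 cells, its log2 ratio of T-positive over T-negative cells was 0.90, so the pooled value and the plates differ in sign. The difference between the stages was not tested.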

How the results depend on the processing

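Over the alternatives, 36 values that answer a comparison moved past their limits. Among the values of single members 32 reversed, 29 became called and 2 moved, and the others were counted as unchanged. For stage ratios below 1 in size, a change of sign within the SD between plates was also counted as unchanged. On leaving out 1 plate, the stage ratio ran from -0.98 to 0.06 for Wnt2 and from -0.70 to 0.48 for Wnt3a. The 7 members with reads in both T classes and a higher level in T-positive cells of all embryos kept that direction in each setting run. Embryo was the replicate block, since both classes come from the same embryo. With no replicate block edgeR called 0 genes for T, Pou5f1, Cdx4 and Krt7 and 2 for Hand1 (0.0122%). DESeq2 called 2.57% of genes for T, 3.62% for Pou5f1, 2.20% for Cdx4, 4.24% for Hand1 and 1.78% for Krt7, with 8, 2, 3, 2 and 5 members, Wnt3a included for T and Pou5f1. Thinned cells gave 0.235%, 0.00749%, 0.262%, 0.209% and 0.0077% in the same order, with 5 members for T and 1 (Wnt5a) for Cdx4. With only genes of 0 counts removed it was 0.0434% for T (3 members), 0.00271% for Pou5f1, 0.00563% for Cdx4 and 0.0759% for Hand1. The T comparison called 0.00592% (Mixl1) in Pou5f1-positive cells, chosen after seeing the data, and 0.00486% (Fn1) with positive cells from 50 CPM. From 10 CPM, Hand1 gave 0.0252% and Krt7 0.00528% (Mesp1). Cdx4 from 50 CPM could not be run, as fewer than 2 embryos had enough cells. At E8.5, plates 7 and 8 alone, chosen after seeing the data, left 1 member (Wnt3) at -1 or below and 5 at 1 or above. Lef1 turned to 0.26, Axin2 to 0.44 and Wnt5a to 0.64. Signs of low or uneven members reversed. For T, Wnt6 went to -0.73 when thinned, -1.49 with no block and -0.073 from 50 CPM. For Pou5f1, Dkk1 went to -0.017, -0.94 and -0.10 in the same settings and -0.056 from 10 CPM. For Cdx4, Wnt2 went to 0.049 in DESeq2, 0.037 with its size factors and 0.18 with no block, and Dkk1 to 0.81 when thinned and 0.41 with no block. For Krt7, Wnt6 went to 0.14, 0.29 and 0.80 when thinned, with no block and from 10 CPM. The causes were not tested. Leaving out 1 plate put 2 to 6 members at -1 or below between stages (5 without E7.5 lane plate 1 or E8.5 plate 7, 6 without plate 8), and 3 to 8 members higher in Krt7-positive E8.5 cells (3 without plate 7). Leaving out 1 embryo, edgeR called 0 to 0.0311% of genes for Cdx4 (5 genes without embryo 2), 0 to 0.0162% for Hand1 (1, 3, 0 and 1 genes without embryos 1, 2, 4 and 5) and 0 for the other markers. In those fits Wnt6 ran from -0.79 to 1.34 for T and from -1.85 to 0.34 for Krt7, and Dkk1 from -1.12 to 1.75 for Pou5f1, from -2.04 to 1.62 for Cdx4, from -1.31 to 0.84 for Hand1 and from -2.97 to 2.80 for Krt7. For Cdx4, Wnt2 ran from -0.35 to 0.15, Wnt3 from -0.42 to 0.10, Wnt3a from -1.29 to 0.34 and Wnt6 from -2.51 to 0.19. For Hand1, Wnt3 ran from -0.070 to 0.37 and Lef1 from -0.19 to 0.31.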
